A study of Mus musculus with 5 samples.

Results

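Interferon-signature neutrophils were a small set of bone marrow cells, 197 of 29679 barcodes in all, that carried transcripts of interferon-stimulated genes together with those of neutrophils. Members were chosen by their counts of unique molecular identifiers (UMIs, each standing for 1 captured RNA molecule). A barcode was first required to hold at least 500 UMIs, with at most 10% of them from mitochondrial genes, which 29679 barcodes did. Of these, 17084 were eligible as neutrophils, with at least 5% of their UMIs from S100a8 and S100a9 (calprotectin subunits abundant in neutrophils) and 0 UMIs of Csf1r (a receptor gene of monocytes and macrophages). Members were the eligible barcodes with 5 or more UMIs summed over Ifit1, Ifit3, Rsad2 and Isg15. The comparators were the 14290 eligible barcodes with 0 UMIs of these 4 genes, and 2597 barcodes with 1 to 4 UMIs lay between.

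The cells came from 5 C57BL/6J mice, 8 weeks old by the study's methods, each injected through the tail vein with 1000 BCR-ABL1+ B-lineage acute lymphoblastic leukemia cells without irradiation. The marrow of 1 mouse was collected at each of day 0, 3, 6, 9 and 12, and the day 0 mouse also received leukemia cells before it was killed. Flushed marrow and cells freed enzymatically from the crushed femurs and tibias were combined, frozen and profiled by 10x 3′ single-cell RNA sequencing. Marrow that received no leukemia cells was not analysed here, and with 1 mouse a day, day and mouse cannot be told apart.

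Type I interferons act through a receptor at the cell surface, kinases of the Janus family and a complex of transcription factors, which enters the nucleus and binds interferon-stimulated response elements near the start of its target genes. The products include proteins that bind viral RNA (the IFIT family), make antiviral nucleotides (viperin, encoded by Rsad2), or attach to other proteins (ISG15, a ubiquitin-like modifier). Neutrophils mature in the marrow from dividing precursors that make primary granules, through a stage that makes secondary granules (Ltf, Camp, Ngp, Lcn2), to late cells with Cxcr2 and other genes of circulating neutrophils.

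Letters that match the core of such an element lie in front of the genes that define the set, which is a description and not a binding site. In the RefSeq promoter windows (GRCm38.p6, 250 bases before to 50 after a start), the letters GAAANNGAAA or their reverse complement TTTCNNTTTC occurred before all 4 interferon genes of the rule. Each sequence below is written 5′ to 3′ on the strand of its gene, lies wholly before the RefSeq start of its window, and has 1 match in capitals, also where the window held more. The first 4 belong to the genes that chose the cells and the others to genes with large increases, described further on, that did not.
Ifit1 (chr19:34640784-34640833, plus strand): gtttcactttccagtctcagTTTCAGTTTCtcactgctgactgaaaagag
Ifit3 (chr19:34583387-34583436, plus strand): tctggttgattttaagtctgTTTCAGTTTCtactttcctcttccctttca
Rsad2 (chr12:26456543-26456592, minus strand): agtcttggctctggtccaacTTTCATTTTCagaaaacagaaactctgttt
Isg15 (chr4:156200861-156200910, minus strand): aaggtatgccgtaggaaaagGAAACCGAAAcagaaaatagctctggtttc
Ifit3b (chr19:34607783-34607832, plus strand): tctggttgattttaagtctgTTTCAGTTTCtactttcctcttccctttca
Gbp2 (chr3:142620584-142620633, plus strand): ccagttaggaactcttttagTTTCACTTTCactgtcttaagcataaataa
Gbp7 (chr3:142530263-142530312, plus strand): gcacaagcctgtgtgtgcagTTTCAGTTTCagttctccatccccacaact
Irgm1 (chr11:48871421-48871470, minus strand): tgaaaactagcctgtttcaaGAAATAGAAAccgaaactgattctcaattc
Igtp (chr11:58199502-58199551, plus strand): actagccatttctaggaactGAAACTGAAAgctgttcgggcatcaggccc
By GENCODE M21 positions, the stretch of Irgm1 and most of that of Gbp2, its capitals included, lie within the gene. The stretches shown for Ifit3 and Ifit3b are the same letter for letter. Ifit1, Ifit3 and Ifit3b held 2 matches each and Isg15 held 3. Among all 27025 genes with a window, 3.99% held the letters.

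In the members the 4 interferon genes that chose them were found at the following levels, in UMIs per 10000 UMIs, which are a description only. Isg15 was at 13.9, 11.7, 9.93, 10.8 and 14.2 in the order of the days. Rsad2 was at 4.8, 3.69, 3.82, 6.38 and 6.91, Ifit1 at 4.05, 2.97, 2.52, 4.02 and 3.08, and Ifit3 at 4.63, 3.14, 1.68, 3.36 and 3.58. Isg15 was the most abundant of the 4 in every library. Isg15 was present in 185 of the 197 members, Rsad2 in 144, Ifit1 in 102 and Ifit3 in 101. All 4 genes were found in 43 members, 3 in 74, 2 in 58 and 1 in 22. The median member held 6.0 to 7.5 signature UMIs, depending on the library, and the highest count was 59 in a day 0 barcode. In barcodes of 1 to 100 UMIs, which hold mostly free RNA, Isg15 was at 0.422 and Rsad2 at 0.174 per 10000 UMIs.

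The members carried the transcripts of neutrophils. Camp (cathelicidin) and Retnlg (a resistin-like protein of neutrophils) were found in all 197 members, Ngp in 99.0% and Ly6g in 71.6%. Summed over 15 neutrophil markers, the level was 862 to 1018 per 10000 UMIs in members of the 5 libraries. It was 1196 to 1315 in comparators and 145 in the 12595 barcodes that were not eligible, a contrast set in part by the rule of eligibility. In the barcodes described above that hold mostly free RNA, the sum was 637 to 908, lower than in the members of the same library each time. Finding these transcripts in a barcode therefore does not by itself mark it as a neutrophil. The members were about as deeply covered as the comparators. Their median was 4009, 3439.5, 3068.5, 3265 and 2716 UMIs from day 0 to day 12, and that of the comparators was 3710, 3702.5, 3416.5, 3193 and 3305.

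The libraries summed to 33425695 to 43554233 UMIs each, and 494 barcodes that passed the depth and mitochondrial limits occurred in 2 or more libraries. Among the members, 11 had a barcode that also passed in another library, and 0 were members in 2 libraries. Doublets could not be removed by a caller, since Scrublet marked 158 barcodes at day 0 and 0 to 3 in each other library, 1 member among them. UMIs of B, T, NK, macrophage, dendritic or basophil markers, 2 or more in sum, were found in 42.6% of members and 45.1% of comparators. Macrophage markers were near 0 in members (15 UMIs in all, with C1qb and Mrc1 at 0), as were basophil markers (10 UMIs, with Cpa3 and Ms4a2 at 0).

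Markers of monocytes and of conventional dendritic cells were not evenly spread among members. Monocyte markers were at 3.39, 3.39, 1.60, 11.7 and 1.25 per 10000 UMIs in members from day 0 to day 12, against 1.18, 1.22, 2.04, 1.56 and 1.11 in comparators. The high value at day 9 lay mostly in 4 members with 5% to 10% of UMIs from S100a8 and S100a9, which stood at 54.9, while the other 45 members of that day stood at 3.47. Dendritic markers (H2-Aa, H2-Ab1, H2-Eb1, Flt3, Cd209a and Xcr1) were at 24.1 at day 0 and 11.4 at day 9. A single member held 235 of the 291 such UMIs at day 0, and another held 206 of 227 at day 9. When all barcodes with 5 or more UMIs of either list were left out, 185 members remained, and several results below are also given for them.

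Most interferon-stimulated genes that had no part in the selection were higher in members. Of 106 tested, 65 were higher in 5 of 5 libraries, beside 332 of all 8714 genes tested. Members and comparators were summed per library and compared by edgeR's quasi-likelihood test with the library as a block, with the 7 genes of the rule left out and Benjamini-Hochberg adjustment over all 8714 genes tested. In that test 284 genes (3.26% of those tested) were higher in members and 521 (5.98%) were lower. Of the genes on 8 interferon lists, 106 were tested, 76 were higher and 1 was lower, with a median log2 fold change (logFC) of 1.80 against -0.30 for all genes tested. In the 185 members, 270 of 8425 genes were higher (3.2%) and 572 lower (6.79%), with 69 of 103 interferon-list genes higher. With comparators matched for depth, 286 of 5727 genes were higher (4.99%) and 153 lower (2.67%), with 70 of 91 interferon-list genes higher. After thinning each barcode to 1000 UMIs, 64 of 4620 genes were higher (1.39%) and 220 lower (4.76%), with 34 of 78 interferon-list genes higher and a median logFC of 1.14. Genes with low counts were filtered out, and a gene rare in comparators could pass through its UMIs in the small member sums alone. For such genes an increase is set in part by the filter. Without it, 123 interferon-list genes were tested, 78 were higher, and 63 were higher in 5 of 5 libraries. Of the 8714 genes above, 227 were then called higher, and 291 were higher in 5 of 5 libraries. Of the 20 largest increases with the filter, 18 were on the interferon lists. The split between higher and lower genes over the whole table moved with the scaling, since DESeq2 with its own size factors gave 301 higher and 158 lower, and 72 of the 106 interferon-list genes were higher by DESeq2, which gave no adjusted p for 4224 genes.

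**Figure D1:**
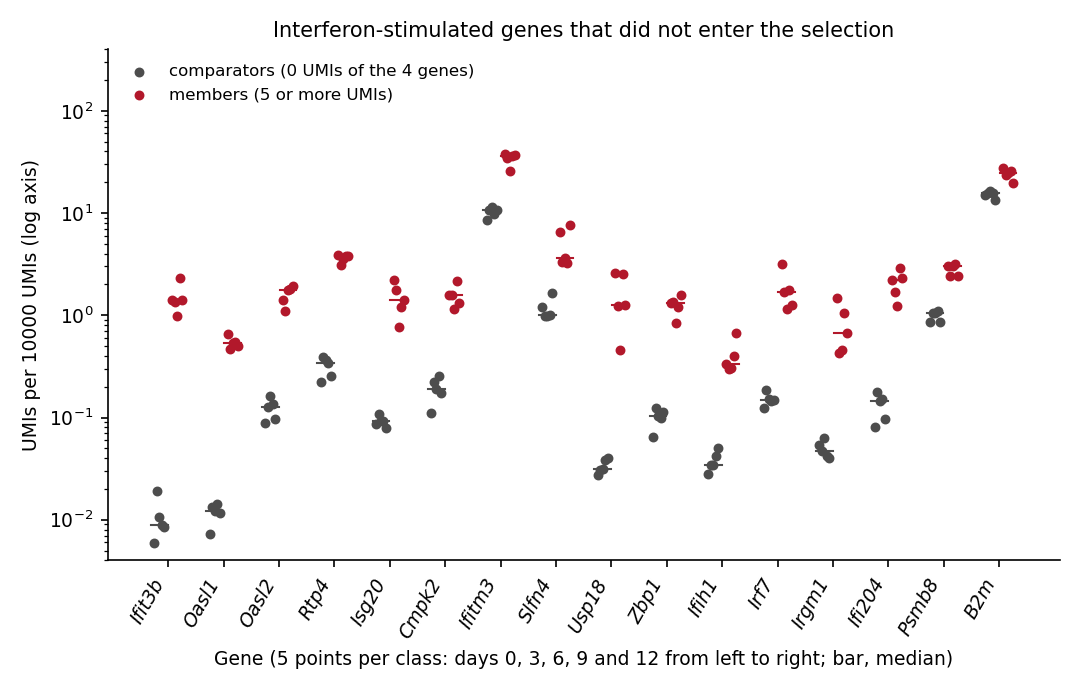
Level of 16 interferon-stimulated genes that did not choose the cells, in UMIs per 10000 UMIs on a log axis, in members (red) and comparators (grey). Each class has 5 points, 1 library each (day 0, 3, 6, 9 and 12 from left to right), and a bar at their median. Each of the 16 genes is higher in members in 5 of 5 libraries, and Ifitm3 and B2m have the highest levels in both classes.

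Antiviral effectors gave 41 of the 76 higher genes. Of 44 tested, 41 were higher, 1 was lower and 2 were not called, with a median logFC of 2.25. In the 185 members 37 of 42 were higher and 0 lower. Rtp4 (a chaperone-like antiviral protein) was at 3.89, 3.14, 3.51, 3.77 and 3.83 per 10000 UMIs in members from day 0 to day 12, and at 0.224, 0.388, 0.364, 0.340 and 0.254 in comparators. The groups did not overlap, and the logFC was 3.33 ± 0.17 (SE, n = 5 libraries, adjusted p = 1.7e-84 by edgeR's quasi-likelihood test). Here and below, the SE of a logFC was worked back from the F statistic of that test and is not a spread measured between libraries. At least 1 Rtp4 UMI was found in 66% of members and 11.2% of comparators.

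Isg20, an exonuclease that degrades viral RNA, was at 2.23, 1.78, 0.764, 1.21 and 1.41 in members and 0.0783 to 0.108 in comparators (logFC 3.78 ± 0.24, edgeR adjusted p = 3.5e-51). Oasl1, of the oligoadenylate synthetase family that senses double-stranded RNA, was at 0.662, 0.466, 0.535, 0.552 and 0.499 in members and 0.00732 to 0.0143 in comparators. Its increase ranked 3 among all genes, with a logFC of 5.27 ± 0.39 (edgeR adjusted p = 7.3e-39), and its relatives Oasl2, Oas3, Oas1a and Oas2 also rose, by logFC 3.49, 2.15, 2.70 and 2.09. In each of these genes the lowest member library lay above the highest comparator library. The share of all genes tested for which this holds was not counted.

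Ifit3b had the largest increase of all genes. It was at 1.41, 1.36, 0.993, 2.31 and 1.41 in members and 0.00586 to 0.0192 in comparators (logFC 6.93 ± 0.30, edgeR adjusted p = 3.6e-113). Ifit3b is a near-identical copy of Ifit3, which chose the cells, and how reads that match both were assigned is uncertain, so its value is not independent of the rule. Ifit2, another IFIT gene, was at 0.331, 0.551, 0, 0.351 and 0.166 in members, from 26 UMIs in all, and had a logFC of 3.67 with 0 UMIs in the day 6 members.

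Ifitm3 (a membrane protein that blocks virus entry) differed less in ratio and more in amount. It was at 38.0, 34.6, 25.7, 36.4 and 37.4 per 10000 UMIs in members and 8.59, 10.6, 11.5, 9.89 and 10.7 in comparators, with a logFC of 1.54 ± 0.10 (edgeR adjusted p = 3.1e-46). Its relative Ifitm6 was the 1 interferon-list gene called lower, at logFC -0.30 ± 0.10 (edgeR adjusted p = 0.038). In UMIs per 10000, Ifitm6 was at 18.1, 21.2, 17.6, 18.3 and 25.9 in members and 17.6, 21.6, 22.2, 22.1 and 24.4 in comparators. Its levels therefore overlapped between the classes, its logFC equalled the median of all genes, and the call was lost without the day 0, day 3, day 6 or day 9 library, by DESeq2 and in the 185 members. The Schlafen genes Slfn4, Slfn5 and Slfn8 rose by logFC 1.80, 4.58 and 3.89. Slfn4 was at 6.54, 3.35, 3.67, 3.21 and 7.66 in members and 0.985 to 1.64 in comparators.

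All 5 tested genes of ISG15 conjugation were higher, with a median logFC of 1.27. Usp18, the protease that removes ISG15 and also dampens receptor signalling, was at 2.57, 1.23, 0.458, 2.51 and 1.25 in members and 0.0271 to 0.0401 in comparators (logFC 5.31 ± 0.28, edgeR adjusted p = 2.5e-77). Herc6, the mouse ligase for ISG15, rose by logFC 2.87, the E2 enzyme Ube2l6 by 0.98 (not called without day 3, at 0.83), the E1 enzyme Uba7 by 1.27 and Trim25 by 1.0. Uba7 and Trim25 were close to the threshold (edgeR adjusted p = 0.042 and 0.04), were not called with comparators matched for granule transcripts, and lost the call without the day 3, day 9 or day 12 library (Uba7 also without day 0). In the 185 members 4 of the 5 genes were higher, and Uba7 was not called (logFC 1.13). Trim25 had a logFC of -0.36 after thinning to 1000 UMIs.

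Sensors of nucleic acids rose in part, with 4 of 9 tested called higher and 0 lower, and a median logFC of 1.19. The 4 were Zbp1, a sensor of Z-form nucleic acid (logFC 3.44), Ifih1, encoding MDA5 (3.16), Ddx58, encoding RIG-I (1.97), and Dhx58, encoding LGP2 (1.96). Zbp1 was at 1.32, 1.36, 0.840, 1.21 and 1.58 in members and 0.0652 to 0.123 in comparators. Myd88 (logFC 0.66), Aim2 (1.19), Tlr7 (0.64), Tmem173, encoding STING (0.95), and Mb21d1, encoding cGAS (-1.60 from 2 member UMIs), were not called. Mavs and Tlr9 had 0 UMIs in members.

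In the signalling pathway some transcription factors rose, while Irf2, Irf3 and Irf8 (logFC 0.53, 0.50 and 0.26) and the receptor chains were not called. Of 18 genes tested 6 were higher and 0 lower, with a median logFC of 0.52, and 5 were higher in the 185 members. Irf7, the factor that amplifies interferon production, was at 3.14, 1.70, 1.15, 1.76 and 1.25 in members and 0.125 to 0.186 in comparators (logFC 3.33 ± 0.22, edgeR adjusted p = 3.3e-50). Stat2 rose by 2.51, Irf9 by 1.51, Irf5 by 1.37 and Irf1 by 1.12. Irf5 lost the call without the day 0, day 3, day 9 or day 12 library and in the 185 members (logFC 1.01), and with granule-matched comparators its logFC was 0.72 and not called. Irf1 lost its call without day 3 (1.03). The type I receptor chains had a logFC of -0.55 ± 0.60 (Ifnar1, 7 member UMIs) and 0.01 ± 0.28 (Ifnar2, 39 UMIs), and the kinases Jak1, Jak2 and Tyk2 were not called either. A difference in Ifnar1 was not detectable at this depth.

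Interferon-inducible GTPases, which act on the vacuoles of intracellular pathogens, had the highest median logFC of the lists, 3.36, with 6 of 7 tested higher and 0 lower. Irgm1 was at 1.49, 0.424, 0.458, 1.05 and 0.666 in members and 0.0401 to 0.0631 in comparators (logFC 3.81 ± 0.32, edgeR adjusted p = 7.8e-30). Gbp2 was at 0.414, 0.382, 0.535, 0.502 and 0.0832 in members and 0.00842 to 0.0267 in comparators (logFC 4.30 ± 0.42, edgeR adjusted p = 3.2e-22). Gbp7, Igtp, Ifi47 and Irgm2 rose by 3.62, 3.36, 3.32 and 2.18 (Irgm2 lost the call without day 12, at 1.89), while Gbp9, with 5 member UMIs, was not called (logFC 1.81). By the annotation, Igtp overlaps Irgm2 and Ifi47 overlaps an olfactory receptor gene on the same strand, so the reads of these pairs may be split between them.

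The PYHIN genes, whose products bind DNA, rose in 4 of 4 tested cases. Ifi204 was at 2.23, 1.70, 1.22, 2.91 and 2.33 in members and 0.0813 to 0.176 in comparators (logFC 3.78 ± 0.21, edgeR adjusted p = 1.1e-67). Mnda, Ifi203 and Mndal rose by 4.29, 1.98 and 1.78, and each was above the comparators in 4 of 5 libraries. In the 185 members Ifi203 and Mndal were not called (logFC 1.06 and 0.94), and Mndal was not called without day 9 (1.32). Among the 20 largest increases, 2 genes were on no list. Gm4955, which RefSeq names Ifi206, a PYHIN gene (chr1:173468485-173491041), had a logFC of 4.84 from 23 member UMIs in 10 members. Gm13822, a noncoding gene (chr5:114917318-114923277, minus strand), overlaps the start of Oasl1 on the opposite strand by 38 bases. Its level was 3.97, 1.27, 0.764, 1.71 and 1.41 in members and 0.0337 to 0.0631 in comparators (logFC 4.93 ± 0.26, edgeR adjusted p = 7.5e-73).

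Genes of class I antigen presentation rose less, with 9 of 16 tested higher, 0 lower and a median logFC of 0.80, and 10 higher in the 185 members. Tap1, a peptide transporter, rose by 1.85, the immunoproteasome subunits Psmb8, Psmb9 and Psmb10 by 1.30, 1.03 and 1.04, and the class I gene H2-T23 by 1.56. Psmb10 lost the call without day 0 or day 3 (0.91 each). B2m, the light chain of class I molecules, was at 27.7, 23.3, 24.7, 25.8 and 19.9 in members and 15.1, 15.6, 16.4, 15.6 and 13.4 in comparators (logFC 0.46 ± 0.10, edgeR adjusted p = 0.00024). Tap2, Psme1, Psme2, Nlrc5, H2-Q4, H2-Q6 and H2-Q7 were not called.

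Interferons themselves were not detected in members. All 10 interferon genes in the files (Ifnb1, 4 Ifna genes, Ifne, Ifng, Ifnk, Ifnl2 and Ifnl3) had 0 UMIs in the 806958 UMIs of the 197 members, a count that leaves room for up to 3 UMIs of each. Of the interferon-induced chemokines and surface genes, Cxcl10 was called (logFC 2.66) from 15 UMIs in 8 members of days 3 and 9, and it lost the call without the day 9 library (logFC 1.27). Ccl5 and Fas were not called, and the other genes of that list were too low to be tested.

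**Figure D2:**
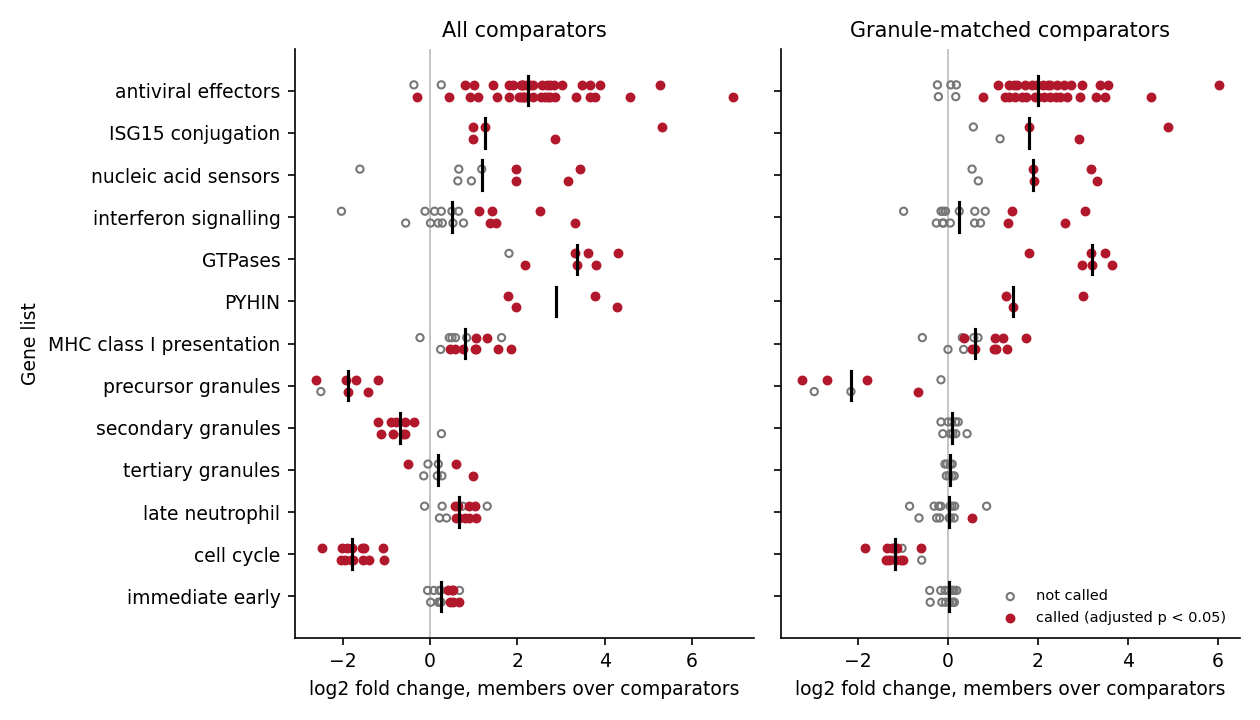
Log2 fold change of each tested gene of 13 lists, members over comparators, with all comparators (left) and with comparators matched for their share of secondary granule transcripts (right). Each point is 1 gene, filled red where the edgeR adjusted p is under 0.05, and the black bar is the median of the list. The medians of the interferon lists lie to the right of 0 in both panels, and those of the secondary granule and late neutrophil lists are at 0.10 and 0.03 in the right panel. The secondary granule genes Ltf, Camp, Ngp and Lcn2 were used for the matching.

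The letters of the response element were not shared evenly by the genes that moved. Of the 76 interferon-list genes called higher, 64 had a promoter window and 29 of these (45.3%) held GAAANNGAAA or its reverse complement, as did 5 of 24 interferon-list genes tested and not called higher (20.8%). Among genes called higher on no interferon list, 26 of 178 held it (14.6%), and among genes called lower, 14 of 429 (3.26%). Over all genes tested, 290 of 7041 with a window held it (4.12%). These are descriptions of the windows, and a gene without the letters may hold them elsewhere.

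The level of the other interferon genes rose in steps with the number of signature UMIs. Summed over the 124 interferon-list genes in the files, the level was 88.8 per 10000 UMIs in comparators, 107.6 at 1 to 2 signature UMIs, 156.7 at 3 to 4, 178.1 at 5 to 9 and 250.3 at 10 or more. From 0 to 5 to 9 UMIs each of the 5 libraries rose at every step, and day 6 was lowest at 10 or more (182.4, from 4 barcodes). The limit of 5 UMIs did not fall in a gap. The 94 barcodes with exactly 4 signature UMIs had 157.5 (Poisson 95% interval 153.6 to 161.5), and the 55 with exactly 5 had 174.6 (169.2 to 180.2). Rtp4 was at 2.65 and 2.94 in these barcodes, Irf7 at 0.764 and 1.25, and Oasl2 at 1.04 and 1.02. Of the members, 190 of 197 lay above the median comparator of their own library in the list's level, and 99 (50.3%) lay above the 95th percentile. Comparators were not matched for granule transcripts here, and their own level varied with these. Over the libraries it was 124.6 to 139.7 per 10000 UMIs in comparators of the lowest granule bin described below. In comparators of the highest bin it was 67.5 to 78.9. The part of this in the steps above was not tested.

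**Figure D3:**
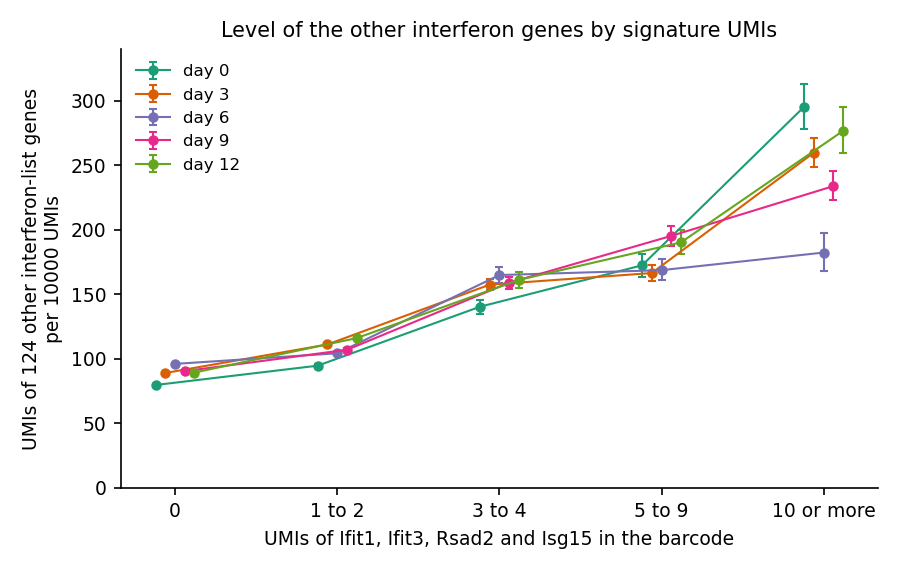
Level of 124 interferon-list genes other than the 4 of the rule, in UMIs per 10000 UMIs, in eligible barcodes binned by their UMIs of Ifit1, Ifit3, Rsad2 and Isg15. Each line is 1 library and the bars are exact Poisson 95% intervals, which cover counting error only. The lines rise together from 79.7 to 96.1 at 0 UMIs to 166.5 to 195.3 at 5 to 9 UMIs.

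Members also differed from the comparators in genes that mark the stages of maturation. Secondary granule genes were lower in 9 of 10 tested cases, with a median logFC of -0.70 and 0 higher. Camp was at 336, 231, 291, 229 and 238 per 10000 UMIs in members and 542, 515, 440, 481 and 490 in comparators (logFC -1.12 ± 0.08, edgeR adjusted p = 3.1e-39). Ngp, Ltf and Lcn2 had logFC of -0.89, -0.84 and -0.62. All 14 tested cell cycle genes were lower (median -1.78), among them Ube2c (-2.04), Mki67 (-1.81) and Hmgb2 (-1.05), and 6 of 7 precursor genes were lower (median -1.88), with Mpo, the myeloperoxidase of primary granules, at -2.61 ± 0.26. In the 185 members 7 of 10 secondary granule, 13 of 14 cell cycle and 5 of 7 precursor genes were lower. With depth-matched comparators these lists had 6 of 10, 11 of 14 and 4 of 7 genes lower, with smaller median differences of -0.46, -1.02 and -0.77.

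Genes of late neutrophils were higher in 9 of 15 cases, with a median logFC of 0.66 and 0 lower, and 10 were higher in the 185 members. Cxcr2, the chemokine receptor of mature neutrophils, was at 1.16, 2.88, 2.29, 2.61 and 2.91 in members and 0.902, 1.24, 1.34, 1.30 and 1.10 in comparators (logFC 0.81 ± 0.16, edgeR adjusted p = 2.3e-05). The day 0 members were the lowest and the closest to their comparators. Il1b rose by 0.90. Of 8 tertiary granule genes 2 were higher (Retnlg by 0.60 and Clec4d by 0.98), 1 was lower (Adpgk, logFC -0.51) and 5 were not called, with a median of 0.18. Immediate early genes, which respond to handling as well as to signals, were higher in 6 of 15 cases with a median logFC of 0.26.

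The 10 largest decreases were genes with 0 UMIs in members, so that only a bound can be given. Cnep1r1, Cdca7l, Spag5, G2e3, Fignl1, Ckap2, Rabgef1, Tmem138, Clpp and Ect2 would have had 5.64 to 7.79 UMIs in members at the comparators' level. Against a floor of 3 UMIs over all members they were at least 1.88-fold to 2.60-fold lower. Spag5, Ckap2, Ect2 and G2e3 act in mitosis or its control. None of the 10 kept its call without the day 3 library, which holds 54 of the 197 members.

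The share of members fell with the amount of secondary granule transcripts. Eligible neutrophils of each library were divided into 4 equal bins by their share of UMIs from Ltf, Camp, Ngp and Lcn2. Members were 104 of 4272 barcodes in the lowest bin (2.43%), 51 of 4271 in the next (1.19%), 28 of 4271 in the following (0.656%) and 14 of 4270 in the highest (0.328%). From day 0 to day 12 the lowest bin held 1.72%, 3.67%, 1.77%, 2.74% and 2.33% members, and the highest held 0.397%, 0.141%, 0.253%, 0.609% and 0.194%. The lowest bin was above the highest in 5 of 5 libraries, by a mean of 2.13 percentage points ± 0.863 (SD, n = 5), with p = 0.0625 in a two-sided exact paired permutation test, the smallest p that 5 pairs allow. Depth moved the other way, with a median of 1802 to 2178 UMIs in the lowest bin and 6167 to 8110 in the highest.

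**Figure D4:**
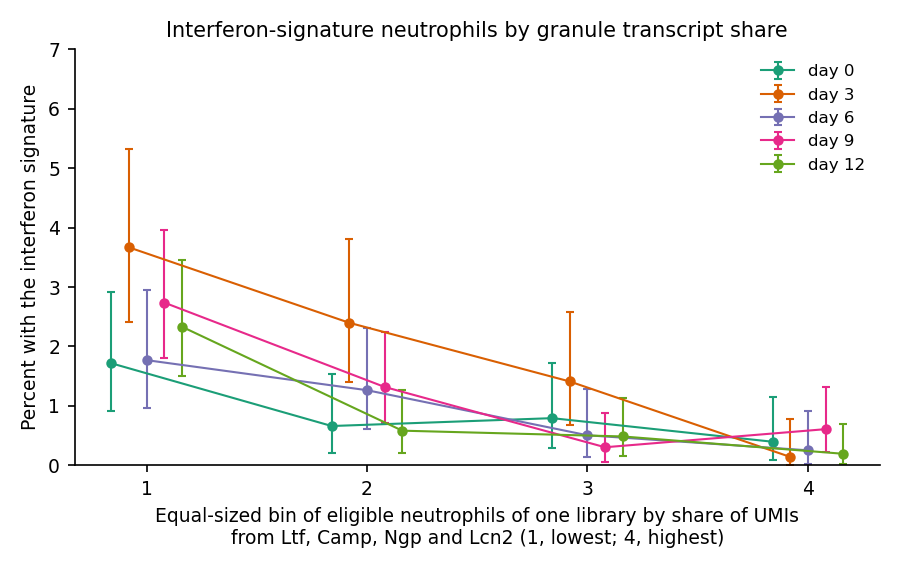
Percent of eligible neutrophils with the interferon signature, by bin of the share of UMIs from Ltf, Camp, Ngp and Lcn2 (1 lowest, 4 highest). Each line is 1 library and the bars are exact binomial 95% intervals, which cover counting error only. All 5 lines are highest in bin 1, at 1.72% to 3.67%, and 0.609% or less in bin 4.

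With comparators drawn to the same granule bins as the members of their library, 6391 genes were tested, and 126 (1.97%) were higher and 176 (2.75%) lower. Interferon genes mostly stayed different, with 63 of 93 tested higher, 0 lower and a median logFC of 1.45, and 62 of these genes were among the 76 called against all comparators. Secondary granule genes were called in 0 of 10 cases by edgeR, with 1 at an unadjusted p under 0.05 (median logFC 0.10), and late neutrophil genes in 1 of 15 (median 0.03). The matching used the secondary granule genes Ltf, Camp, Ngp and Lcn2, so the lack of calls on their list is set in part by it. Immediate early genes were called in 0 of 15 cases by edgeR, with 1 at an unadjusted p under 0.05. The share of all genes at an unadjusted p was not counted. At an adjusted p under 0.05, 11 of 14 cell cycle genes were still lower by edgeR, with a median of -1.18, and so were 4 of 7 precursor genes. Ifitm1 and Ifitm2, which rose by 0.91 and 0.44 against all comparators, had logFC of -0.21 and 0.06 here, and Il1b and Retnlg had -0.21 and -0.04. The drawn comparators were shallower than the members, with medians of 2262 to 2594 UMIs.

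Other cell types' markers were mostly not called. Of 8 monocyte markers tested, 4 were higher (Ctss, Ms4a6c, Ccr2 and Ly86) and 0 lower. Ctss, which encodes a lysosomal protease found in several myeloid cells, was at 2.07, 1.91, 0.687, 3.06 and 0.666 in members and 0.324 to 0.581 in comparators (logFC 1.82 ± 0.20, edgeR adjusted p = 5.1e-17). It was the 1 monocyte marker called with granule-matched comparators, by DESeq2 and in the 185 members (logFC 1.16). In those members Ms4a6c, Ccr2 and Ly86 had logFC of -0.68, -0.65 and 0.40, and without the day 9 library 0.46, -0.05 and 0.33. The 185 members were chosen by their UMIs of these same markers, Ctss included, so lower values among them are set in part by that choice. B, T, macrophage, plasmacytoid and conventional dendritic, erythroid and basophil markers gave 0 calls by edgeR, and by DESeq2 where it gave an adjusted p, while 3 of 7 B markers were lower with granule-matched comparators and the erythroid marker Hbb-bt was higher in the 185 members (logFC 1.87, against 1.54 and not called in all members). At an unadjusted p under 0.05 by edgeR there were 2 of 8 B, 2 of 6 T, 2 of 2 macrophage, 0 of 5 plasmacytoid, 1 of 4 conventional dendritic, 1 of 4 erythroid and 0 of 2 basophil markers. The share of all genes at an unadjusted p was not counted. It is no smaller than the 3.26% higher and 5.98% lower called after adjustment, so these counts cannot be set against a background. Of the NK markers Nkg7 was lower (logFC -1.39). The part of RNA from other cells in the interferon genes was not tested beyond the values with those barcodes left out.

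Members were found at every day, and the share was highest at day 3. They were 27 of 3025 eligible neutrophils at day 0 (0.893%, exact binomial 95% interval 0.589 to 1.30), 54 of 2835 at day 3 (1.90%, 1.43 to 2.48), 30 of 3164 at day 6 (0.948%, 0.641 to 1.35), 49 of 3944 at day 9 (1.24%, 0.921 to 1.64) and 37 of 4116 at day 12 (0.899%, 0.634 to 1.24). The interval of day 3 lay above those of days 0, 6 and 12 and overlapped that of day 9. Intervals cover the counting of barcodes only and not the difference between mice, so no test between days was possible.

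Thinning every barcode to 2000 UMIs lowered the shares and left day 3 highest. They were then 0.342%, 1.15%, 0.282%, 0.450% and 0.465% from day 0 to day 12, and 762, 589, 784, 955 and 964 eligible barcodes were too shallow to enter. Without the condition on Csf1r the shares were 0.842%, 2.25%, 1.05%, 1.47% and 0.972%. That condition alone kept out 39 barcodes with 5 or more signature UMIs, 15 of them at day 3 and 0 at day 0.

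**Figure D5:**
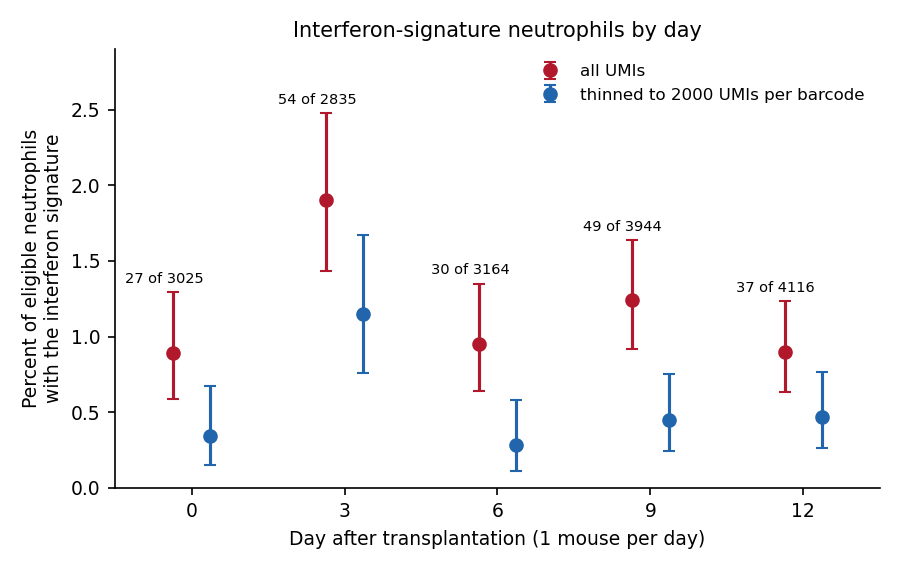
Percent of eligible neutrophils with the interferon signature at each day, 1 mouse a day, counted with all UMIs (red, with the numbers of barcodes) and after each barcode was thinned to 2000 UMIs (blue). Bars are exact binomial 95% intervals, which cover counting error only. Day 3 is the highest point in both series, at 1.90% and 1.15%.

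In the median member, the level of the 124 interferon-list genes was 229.3, 187.0, 173.9, 203.9 and 228.3 per 10000 UMIs from day 0 to day 12, and the ranges from the 25th to the 75th percentile of members overlapped between all days. In the median comparator it was 89.2, 100.9, 106.5, 101.0 and 101.8, so day 0 was the lowest among comparators, while day 0 and day 12 were the highest among members.

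Interferon genes also differed between days over all eligible neutrophils, of which members are 1.15%. Against day 0, with a pseudocount of 0.05 per 10000 UMIs, 16 of 121 interferon-list genes were more than 1.5-fold higher at day 3, beside 0.886% of all genes, and 2 were lower (0.841% of all genes). At day 6 it was 10 of 121 higher (beside 1.66%) and 1 lower (0.707%), at day 9 13 of 123 (2.36%) and 0 lower (0.689%), and at day 12 1 of 120 (0.496%) and 2 lower (0.528%). These comparisons share the day 0 library. The shares of all genes cover every gene with at least 1 UMI in the libraries compared and were not matched for level. The pseudocount holds genes with few UMIs near a ratio of 1, so these shares are not a like background for the lists. With a pseudocount of 0.2 the counts higher were 5, 3, 4 and 0, and no share of all genes is given at that setting.

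The values of 2 genes that were past 1.5-fold show the course, chosen after they were seen. Bst2, tetherin, which holds budding virus at the cell surface, was at 0.238, 0.502, 0.491, 0.540 and 0.199 per 10000 UMIs of eligible neutrophils from day 0 to day 12. Oas3 was at 0.110, 0.288, 0.249, 0.247 and 0.212. In these genes day 0 was low, days 3, 6 and 9 were alike, and day 12 lay near day 0 for Bst2 and above it for Oas3.

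The comparators, with 0 signature UMIs, also differed between days. Among them 11 of 120 interferon-list genes were more than 1.5-fold higher at day 3 than at day 0 (beside 0.664% of all genes), 15 of 121 at day 6 (1.89%), 12 of 122 at day 9 (2.31%) and 2 of 119 at day 12 (0.438%). Lower by the same measure were 2 genes at day 3 (0.883%), 1 at day 6 (0.76%), 0 at day 9 (0.749%) and 3 at day 12 (0.511%). The shares of all genes have the same limit as those over all eligible neutrophils. Bst2 was at 0.204, 0.441, 0.477, 0.485 and 0.175 there, whereas in members it was at 2.23, 1.36, 1.15, 1.21 and 1.58. Bst2 was at 2.57 in barcodes of 1 to 100 UMIs, above its level in eligible neutrophils, and the part of free RNA in its course over days was not tested.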

How the data were processed

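Bone marrow single-cell libraries of 5 mice were used, 1 per day. The authors made the deposited UMI counts per gene and barcode with Cell Ranger on mm10 (10x 3′ v2 chemistry). The raw, unfiltered matrices were read as counts and contain 28692 genes. The annotation release was not given in the sources used here. Library totals and the precision they give stand beside the results, and UMI intervals cover counting error only. Counts were summed per library and class, since cells are not replicates. The 10 sums were tested with edgeR 4.0.16 in R 4.3.3 (TMM, filterByExpr, glmQLFit and glmQLFTest, library as block, adjusted p threshold 0.05), without the 7 genes of the rule. Member and comparator sums of a mouse are paired because they come from the same animal. DESeq2 1.42.0, depth-matched, thinned and other alternatives are described in the closing section. The scripts were tested on simulated data. Python 3.11.15, scipy 1.17.1 and scanpy 1.11.5 (Scrublet) were used for the rest.

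Named genes were those of the gene lists, plus the 20 largest increases and 10 largest decreases that passed the threshold with 1 sign in all 5 libraries and at least 50 UMIs. A gene named in the text outside these was chosen after its values were seen. The members, the lists and the comparisons were chosen with earlier results of these data known. Comparators matched for granule transcripts, the S100a8 and S100a9 limit of 10% in the test, and leaving out barcodes with monocyte or dendritic UMIs were chosen after the data were seen. Promoter windows came from RefSeq (GRCm38.p6) and gene positions from GENCODE M21, and 7041 of the 8714 genes tested were matched to a window by symbol, Entrez number or older symbol.
Some items are not reported here.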

Additional observations from a re-analysis of the deposited data

Results flagged for a closer look

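Barcodes that were not eligible as neutrophils also carried the signature, above the level at day 0. In these barcodes, of several cell types, 5 or more UMIs of Ifit1, Ifit3, Rsad2 and Isg15 were found in 46 of 3234 at day 0 (1.42%, exact binomial 95% interval 1.04 to 1.89). At day 3 the share was 4.32% (3.48 to 5.30), at day 6 it was 2.54% (1.99 to 3.18), and at day 9 it was 2.53% (2.0 to 3.16). Day 12, at 2.48% (1.75 to 3.42), overlapped day 0 in its interval. Day 0 stood in as the control here, the mouse at day 0 had also received leukemia cells, and the mixture of cell types differed between days, so the difference was not tested.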

How the results depend on the processing

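Genes called higher were 284 and those called lower 521. After thinning each barcode to 1000 UMIs they were 64 and 220, without barcodes with markers of other cell types 152 and 245, and with granule-matched comparators 126 and 176. Depth-matched comparators gave 153 lower genes and DESeq2 158. Leaving out each library in turn gave 205 to 275 higher and 292 (without day 3) to 436 lower. Interferon-list genes called higher were 76, or 69 to 76 with 1 library left out, and 34 of 78 tested after thinning to 1000 UMIs. The 1 called lower became 0 without the replicate block, with granule-matched comparators, with S100a8 and S100a9 at 10% or more, without monocyte or dendritic UMIs and with DESeq2, and was 0 to 1 with 1 library left out. Without the replicate block, 262 genes were higher and 547 lower, with 74 interferon-list genes higher.

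With 3 or more signature UMIs the shares from day 0 to day 12 were 2.41%, 4.55%, 2.37%, 2.89% and 1.99%, with 8 or more they were 0.298%, 0.952%, 0.284%, 0.507% and 0.340%, and thinned to 2000 UMIs they were 0.342%, 1.15%, 0.282%, 0.450% and 0.465%. With a pseudocount of 0.2, interferon-list genes past 1.5-fold at days 3, 6, 9 and 12 were 5, 3, 4 and 0 higher and 0 lower at days 3, 6 and 12. With S100a8 and S100a9 at 10% or more, 2 were higher at day 12. The 20 largest increases kept their call wherever they could be tested. Of the 10 largest decreases, 10 lost it without day 3, 6 without day 9, 3 without day 0 and 2 without day 12. With granule-matched comparators 4 kept it and 1 lost it, with depth-matched comparators 1 kept it, and the rest could not be tested there. None of the 10 had an adjusted p by DESeq2, after thinning or without barcodes with other cell types' markers. Of 46 other called genes named in the text, 14 kept call and direction under every alternative tested. With granule-matched comparators the logFC turned for Ifitm6 (0.19), Ifitm1 (-0.21), Ngp (0.06), Ltf (0.11), Lcn2 (0.08), Il1b (-0.21) and Retnlg (-0.04), of which Ngp, Ltf and Lcn2, like Camp, were used for the matching, so that their loss is fixed by it. Thinning turned Trim25 (-0.36) and Retnlg (-0.08), leaving out barcodes with other cell types' markers turned Ms4a6c (-1.12) and Ccr2 (-0.76), leaving out monocyte or dendritic UMIs turned Ms4a6c (-0.68) and Ccr2 (-0.65), and with 1 library left out Ccr2 ranged from -0.05 (without day 9) to 1.27. Ms4a6c and Ccr2 are on the monocyte list, so their turn with monocyte UMIs left out is set in part by that choice. The cause of these changes was not tested, beyond what each alternative leaves out. The members hold 806958 UMIs against 68088255 in the comparators, which limits the test of genes with few member UMIs.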
